A study of Mus musculus with 6 samples.

Results

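Edn2, Dcn, St3gal1, Selenbp1 and Arhgap44 were proposed as genes whose RNA differs between irradiated and untreated mouse submandibular glands in opposite directions in granular duct cells and in ionocytes. They are 5 of the 32285 genes counted. They were picked because their levels per mouse in these 2 cell classes had been seen, so the irradiation contrast within each class, and the difference between the classes, are given below as descriptions with no test. The submandibular gland is a salivary gland, in which acini make the saliva proteins and ducts modify the fluid and add growth factors and kallikreins.

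Single-cell RNA was counted in droplet libraries of 3 groups of female, wild-type C57BL/6J mice, a common inbred strain. The first group, called irradiated here, was the whole Epcam+ epithelium collected 90 days after 30 Gy aimed at the left gland. The second was a basal sort of untreated glands, Epcam+ and Cd49f-high (integrin alpha 6, an anchor of basal cells). The third, called untreated here, was the whole Epcam+ epithelium of untreated glands. Sorting set aside DAPI+ dead cells and cells carrying Cd3, Cd16/Cd32, Cd31 or Cd45. Each group was 1 library of 3 pooled mice, whose cells carried different hashtag antibodies, so n = 3 mice in every group. Every mouse is labelled as 8 to 10 weeks old, which cannot have been the age of the irradiated mice at collection. Library, age and irradiation can therefore not be told apart. No date of preparation is given for any library.

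The 5 genes have unlike functions. Edn2 encodes endothelin 2, a secreted peptide that acts on the same receptors as the vasoconstrictor endothelin 1. Dcn encodes decorin, a small leucine-rich proteoglycan that binds collagen fibrils and is made mostly by connective tissue cells. St3gal1 encodes a Golgi sialyltransferase that adds sialic acid to core 1 O-glycans, the short sugar chains of mucin-type glycoproteins. Selenbp1 encodes a selenium-binding protein known in human cells as a methanethiol oxidase, an enzyme of sulfur metabolism. Arhgap44 encodes a BAR-domain protein that speeds GTP hydrolysis by Rac-type small GTPases, switches of the actin skeleton. Granular duct cells are the kallikrein- and EGF-secreting cells of the rodent gland, and ionocytes are duct cells marked by the transcription factors Ascl3 and Foxi1 and by proton pump subunits.

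In the RefSeq annotation of GRCm38.p6 all 5 are protein-coding genes. Edn2 lies on chromosome 4 from 120161206 to 120167360, Dcn on chromosome 10 from 97479500 to 97518163 and St3gal1 on chromosome 15 from 67102875 to 67176946. Selenbp1 lies on chromosome 3 from 94933083 to 94944758 and Arhgap44 on chromosome 11 from 65002039 to 65162972. The promoters of Selenbp1 and Edn2 are shown because Ascl3 is a basic helix-loop-helix factor, a family that binds the E-box CANNTG, and Foxi1 is a forkhead factor, a family that binds the core GTAAACA. Each is the 250 bases before the gene's start in RefSeq (GRCm38.p6), with E-boxes in capitals.
Selenbp1, chr3:94932833-94933082, plus strand: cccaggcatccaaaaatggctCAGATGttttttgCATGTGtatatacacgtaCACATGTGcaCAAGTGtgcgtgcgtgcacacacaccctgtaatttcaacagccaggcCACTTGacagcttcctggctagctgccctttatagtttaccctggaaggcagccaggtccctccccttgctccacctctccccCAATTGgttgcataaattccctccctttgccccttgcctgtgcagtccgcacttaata
Edn2, chr4:120160956-120161205, plus strand: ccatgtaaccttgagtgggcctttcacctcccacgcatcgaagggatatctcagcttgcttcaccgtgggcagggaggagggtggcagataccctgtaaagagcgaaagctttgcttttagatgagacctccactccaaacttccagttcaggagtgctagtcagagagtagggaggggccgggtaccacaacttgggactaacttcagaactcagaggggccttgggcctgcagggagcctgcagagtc
The Selenbp1 window holds 7 E-boxes, of which the run CACATGTG contains an overlapping pair. The Edn2 window and that of Arhgap44 hold 0. Of 32851 promoter windows of this length, 66.22% hold at least 1 E-box (median 1), and 25 windows, 0.076%, hold 7 or more. The E-box reads the same on both strands. The forkhead core, searched as GTAAACA and TGTTTAC, was in none of these 3 windows and is in 3.17% of all windows. A match of letters is a description and not a binding site.

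After filtering, 2153 irradiated cells, 3189 cells of the basal sort and 2165 untreated cells were kept. Granular duct cells were taken as cells in which the 13 Klk1b kallikrein genes and Egf made up at least 3% of UMIs (molecules counted). Ionocytes were taken as cells below that share with at least 5 UMIs of Ascl3, Foxi1, Atp6v0d2 and Atp6v1b1 together, the last 2 being proton pump subunits. Granular duct cells numbered 101, 348 and 174 in irradiated mice 1, 2 and 3, and 117, 135 and 102 in untreated mice. Ionocytes numbered 139, 634 and 193 in irradiated mice and 228, 232 and 171 in untreated mice. Cells of the ionocyte rule thus made up 38.4% to 48.25% of the kept cells of an irradiated mouse and 25.3% to 31.8% of those of an untreated mouse. The median depth of a granular duct cell was 28417 UMIs in irradiated and 20903 in untreated glands, and that of an ionocyte 18866 and 12147 UMIs. The median mitochondrial share of UMIs within a mouse, which bears on RNA quality, was 3.22% to 3.82% in irradiated and 9.10% to 9.81% in untreated granular duct cells. In ionocytes it was 4.52% to 5.76% in irradiated and 12% to 12.2% in untreated mice. The irradiated and untreated libraries shared 8 cell barcodes.

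The label of the ionocyte class held less well in the irradiated library. Of its 966 irradiated cells, 349 (36.13%) had 0 or 1 UMIs of Ascl3 and Foxi1, against 72 of 631 untreated cells (11.41%). These irradiated cells qualified mainly by the pump subunit Atp6v0d2, detected in 99.71% of them, and kallikreins and Egf made up a median of 1.587% of their UMIs. Atp6v0d2 was also detected in 96.63% of irradiated and 86.72% of untreated granular duct cells, whereas Ascl3 was detected in 1.93% of irradiated and 11.02% of untreated ones. Ionocyte results are therefore also given for the cells with at least 3 UMIs of Ascl3 and Foxi1, 551 irradiated and 536 untreated, called Ascl3/Foxi1-positive ionocytes below. That split was chosen after seeing the data, and it uses genes that differ between the groups: Ascl3 stood at 145 CPM in irradiated and 470 CPM in untreated cells of the ionocyte rule. The granular duct class held 402 irradiated cells (64.53%) and 83 untreated cells (23.45%) with 5 or more UMIs of the 4 ionocyte genes. This cut and the ionocyte rule are UMI counts, which rise with depth, and irradiated cells were deeper. Scaled to CPM, the 4 genes summed to 174 to 230 in granular duct cells of irradiated mice and 152 to 201 in those of untreated mice.

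**Figure D1:**
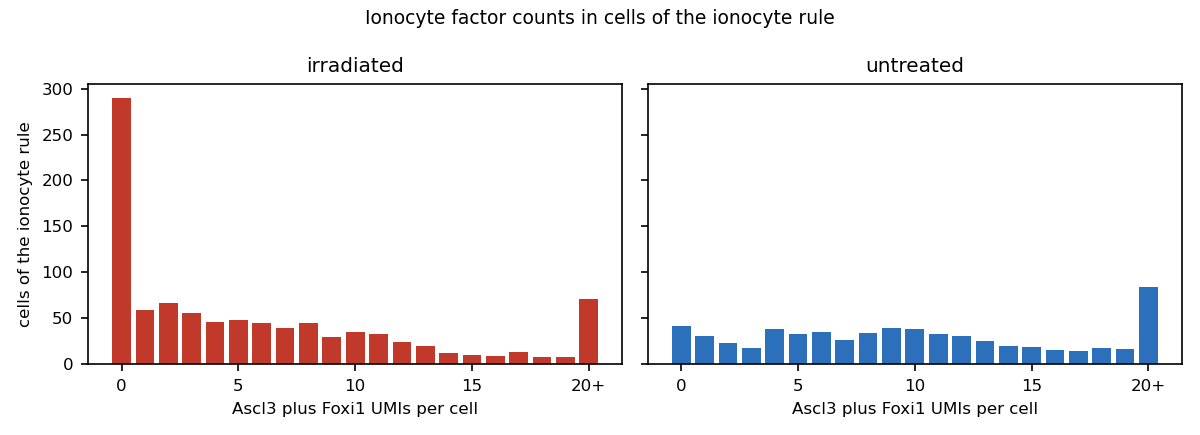
Number of cells of the ionocyte rule (y axis) by their summed UMIs of Ascl3 and Foxi1 (x axis, 20 or more pooled in the last bar), in the irradiated library (left) and the untreated library (right). A bar of 290 irradiated cells, 30.0% of the class, stands at 0 UMIs, against 41 untreated cells, 6.50%.

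Levels are given as CPM, the counts of a gene scaled to the usual common total of UMIs, summed over all cells of that class and mouse. They are compared for 1 gene across samples, never between genes. Log2 fold changes of irradiated over untreated, with their standard errors (SE), are from edgeR's quasi-likelihood fit on counts summed per mouse. In granular duct cells 3 of the 5 genes had enough counts to be fitted, and in ionocytes 5 of 5. The fits passed an adjusted p of 0.05 for 33.9% of 8751 genes in granular duct cells (17.5% higher and 16.4% lower) and for 24.4% of 9948 genes in ionocytes (14.7% higher and 9.68% lower). St3gal1 and Selenbp1, 2 of the 5, passed in opposite directions in both classes, as did 16 of the 8623 genes fitted in both, 0.186%. St3gal1 did not pass in granular duct cells with DESeq2 or without irradiated mouse 2, nor in ionocytes at a mitochondrial limit of 10%, and Selenbp1 did not pass in ionocytes without irradiated mouse 2. Mice did not overlap between the groups for 20.7% of genes lower in granular duct cells and for 27.0% of genes higher in ionocytes. St3gal1 and Selenbp1 were among the 44 genes, 0.510%, whose mice did not overlap in either class, lower in granular duct cells and higher in ionocytes. Since the 5 were chosen on this contrast, nothing is read from these counts.

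**Figure D2:**
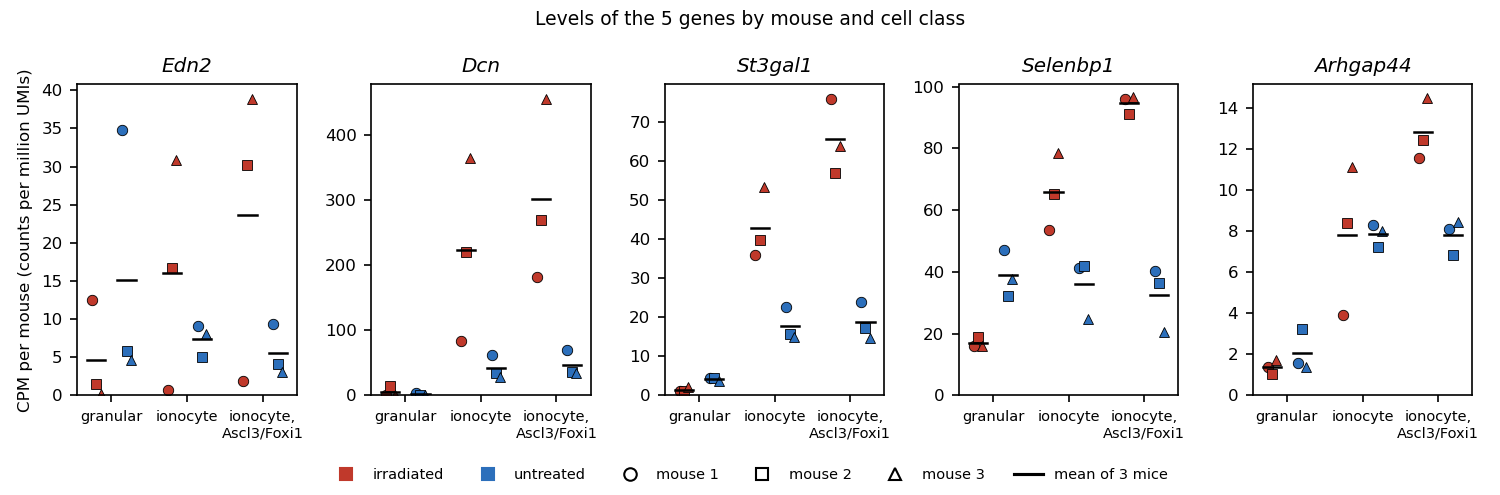
CPM per mouse (y axis, linear, from 0, own scale per gene) of the 5 genes in granular duct cells, ionocytes, and Ascl3/Foxi1-positive ionocytes (x axis), irradiated mice in red left of untreated mice in blue. Symbols mark mice 1, 2 and 3 and bars the mean of 3 mice. St3gal1 and Selenbp1 separate the groups in all 3 classes, downward in granular duct cells and upward in the others. The share of all genes that separate in Ascl3/Foxi1-positive ionocytes was not counted.

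The clearest opposite pattern was that of Selenbp1. Irradiated granular duct cells had it at 15.9, 19.0 and 15.9 CPM in the 3 mice, against 47.1, 32.2 and 37.8 CPM in untreated mice. All 3 irradiated mice lay below all 3 untreated mice, with a log2 fold change of -1.22 ± 0.15 (SE). In ionocytes it stood at 53.5, 65.4 and 78.4 CPM in irradiated mice and at 41.4, 42.0 and 24.7 CPM in untreated mice. Here all 3 irradiated mice lay above the untreated mice, with a log2 fold change of 0.76 ± 0.19 (SE). The effect in ionocytes minus that in granular duct cells was 1.95 ± 0.21 on the log2 scale (SE). In that fit 4.32% of 10446 genes passed (2.56% higher and 1.76% lower), and so did 2 of the 5, Selenbp1 and St3gal1.

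Within the ionocyte class the Selenbp1 difference followed the cells with ionocyte factors. In Ascl3/Foxi1-positive ionocytes it stood at 96.2, 91.1 and 96.7 CPM in irradiated mice and at 40.2, 36.5 and 20.5 CPM in untreated mice, without overlap. The log2 fold change there was 1.30 ± 0.17 (SE), and the share of all genes without overlap in these cells was not counted. In ionocytes with 0 or 1 UMIs of both factors it averaged 31.9 ± 2.82 CPM in irradiated and 55.7 ± 11.5 CPM in untreated mice (SD, n = 3 each, as few as 19 cells in a mouse), the order seen in granular duct cells. The Selenbp1 counts were spread widely. The cell with the most counts held 17 of 1331 counts in irradiated ionocytes and 5 of 338 in irradiated granular duct cells, against 10 of 377 and 6 of 300 in untreated cells of the same classes. Selenbp2, a close copy that the 3' reads might be shared with, stood at no more than 1.84 CPM in any mouse of either class.

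St3gal1 was near the detection limit in granular duct cells and well above it in ionocytes. The granular duct cells gave 3, 11 and 13 counts in irradiated mice, or 1.04, 1.04 and 2.25 CPM, and 11, 14 and 8 counts in untreated mice, or 4.35, 4.55 and 3.68 CPM. Irradiated mice lay below untreated mice without overlap, on few counts, and the log2 fold change was -1.60 ± 0.38 (SE). In ionocytes it stood at 35.9, 39.8 and 53.3 CPM in irradiated mice and at 22.7, 15.8 and 15.0 CPM in untreated mice. Every irradiated mouse was above every untreated one, with a log2 fold change of 1.15 ± 0.20 (SE). In Ascl3/Foxi1-positive ionocytes the levels were 76.0, 57.1 and 64.0 CPM in irradiated mice and 24.0, 17.4 and 14.7 CPM in untreated mice, a log2 fold change of 1.52 ± 0.17 (SE). In the cells of the ionocyte rule with 0 or 1 UMIs of both factors the groups overlapped, at 12.7 ± 3.26 CPM in irradiated and 14.2 ± 3.60 CPM in untreated mice (SD, n = 3 each). The difference of effects, ionocytes minus granular duct cells, was 2.74 ± 0.39 on the log2 scale (SE). It was 1.64 ± 0.55 at a mitochondrial limit of 10% in place of 20% and 1.88 ± 0.67 without granular duct cells holding 5 ionocyte UMIs, and passed under neither. In ionocytes alone the 10% limit gave a log2 fold change of 0.46 ± 0.22 (SE).

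Dcn differed in ionocytes and was almost undetected in granular duct cells. In ionocytes it stood at 84.2, 220.7 and 364.5 CPM in irradiated mice and at 62.7, 35.0 and 28.5 CPM in untreated mice. The irradiated mice were higher without overlap, but spread over more than the gap between the groups, and the log2 fold change was 2.27 ± 0.45 (SE). In Ascl3/Foxi1-positive ionocytes it stood at 181.8, 269.3 and 455.3 CPM in irradiated mice and at 70.2, 35.5 and 33.9 CPM in untreated mice, a log2 fold change of 2.48 ± 0.32 (SE). The 4581 counts in irradiated ionocytes came from 288 cells, of which the highest held 134, and the 443 counts in untreated ionocytes from 128 cells, of which the highest held 23.

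In granular duct cells Dcn had 0, 146 and 5 counts in irradiated mice, or 0 (a level of up to 1.04 CPM for 3 counts), 13.9 and 0.864 CPM. In untreated mice it had 11, 3 and 1 counts, or 4.35, 0.975 and 0.460 CPM. A single irradiated cell held 138 of the 146 counts of mouse 2, which without it stood at 0.764 CPM. The mean difference, irradiated minus untreated, was 2.98 CPM with that cell and -1.39 CPM without it. The groups overlapped and the main setting fitted no fold change. Alternatives that did fit Dcn in granular duct cells put irradiated mice higher, the direction seen in ionocytes. With no filter on low counts the log2 fold change was 1.75 ± 0.37 (SE) and passed, and with DESeq2 it was 1.40 ± 1.91 (SE) and did not. Both fits include the cell with 138 counts. An opposite direction in granular duct cells was thus not shown for Dcn at this depth.

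Dcn is a connective tissue gene, and its level was set beside the markers of other cell types. Of 5 fibroblast markers (Col1a1, Col1a2, Col3a1, Lum, Pdgfra) 4 had 0 counts in irradiated ionocytes, and the list summed to 0 to 0.979 CPM in irradiated and 0.267 to 0.696 CPM in untreated ionocytes. The 6 basal duct markers (Krt5, Krt14, Krt15, Krt17, Trp63, Col17a1) summed to 26.7 to 93.7 CPM in irradiated and 5.84 to 19.2 CPM in untreated ionocytes, and all 6 had counts in both. The 5 immune markers summed to 4.16 to 37.0 CPM in irradiated and 1.60 to 1.74 CPM in untreated ionocytes, with Cd3e at 0. Dcn itself stood at 14.0, 305.7 and 36.3 CPM in the 7, 31 and 10 basal duct cells of irradiated mice 1, 2 and 3, and averaged 2762 ± 625 CPM in untreated basal duct cells (SD, n = 3). By mouse, the basal marker sum in ionocytes was 93.7, 26.7 and 49.2 CPM in irradiated mice 1, 2 and 3. The part of basal or immune RNA in the Dcn difference was not tested.

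Edn2 differed in the same directions as Selenbp1 by its fitted values, but the mice overlapped in both classes. Its granular duct level was 12.4, 1.42 and 0.173 CPM in irradiated mice and 34.8, 5.85 and 4.60 CPM in untreated mice. Mouse 1 was the highest in both groups, and irradiated mouse 1 exceeded untreated mice 2 and 3. The log2 fold change was -2.31 ± 0.92 (SE), and it was -3.93 without irradiated mouse 1 and -0.87 without untreated mouse 1. In ionocytes it stood at 0.653, 16.7 and 30.8 CPM in irradiated mice and at 9.08, 5.00 and 8.00 CPM in untreated mice. Irradiated mouse 1, with 2 counts, was below every untreated mouse while the other two were above them, and the log2 fold change was 1.06 ± 0.68 (SE). It was 0.51 without irradiated mouse 3 and 0.065 at a mitochondrial limit of 10%.

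The order of Edn2 was the same in Ascl3/Foxi1-positive ionocytes, at 1.92, 30.2 and 38.8 CPM in irradiated mice and 9.35, 4.09 and 3.12 CPM in untreated mice, again with overlap (log2 fold change 2.05 ± 0.53, SE). Edn2 counts sat in few cells. In granular duct cells 1 cell held 23 of the 36 counts of irradiated mouse 1, and 1 cell held 61 of the 88 counts of untreated mouse 1. In ionocytes the 341 irradiated counts came from 52 cells and the 75 untreated counts from 19 cells, and the 5 highest cells held 58.1% and 61.3% of them. The means of Edn2 per mouse therefore rest on a handful of high cells.

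Arhgap44 did not show opposite directions. The granular duct cells gave 4, 11 and 10 counts in irradiated mice, or 1.38, 1.04 and 1.73 CPM, and 4, 10 and 3 counts in untreated mice, or 1.58, 3.25 and 1.38 CPM. The groups overlapped, and the counts were too low for the fit. In ionocytes it stood at 3.92, 8.40 and 11.1 CPM in irradiated mice and at 8.27, 7.23 and 8.00 CPM in untreated mice, also with overlap, and the log2 fold change was -0.05 ± 0.30 (SE). In Ascl3/Foxi1-positive ionocytes the irradiated mice, at 11.5, 12.4 and 14.5 CPM, lay above the untreated mice, at 8.11, 6.82 and 8.46 CPM, and the log2 fold change was 0.54 ± 0.22 (SE). Arhgap44 did not pass in these cells, where 1414 of 9387 genes passed as higher. The share of all genes whose mice separate in these cells was not counted. The sign in ionocytes thus turned with the class rule. Cells of the ionocyte rule with 0 or 1 UMIs of both factors averaged 2.10 ± 1.82 CPM of Arhgap44 in irradiated and 8.48 ± 1.54 CPM in untreated mice (SD, n = 3 each).

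**Figure D3:**
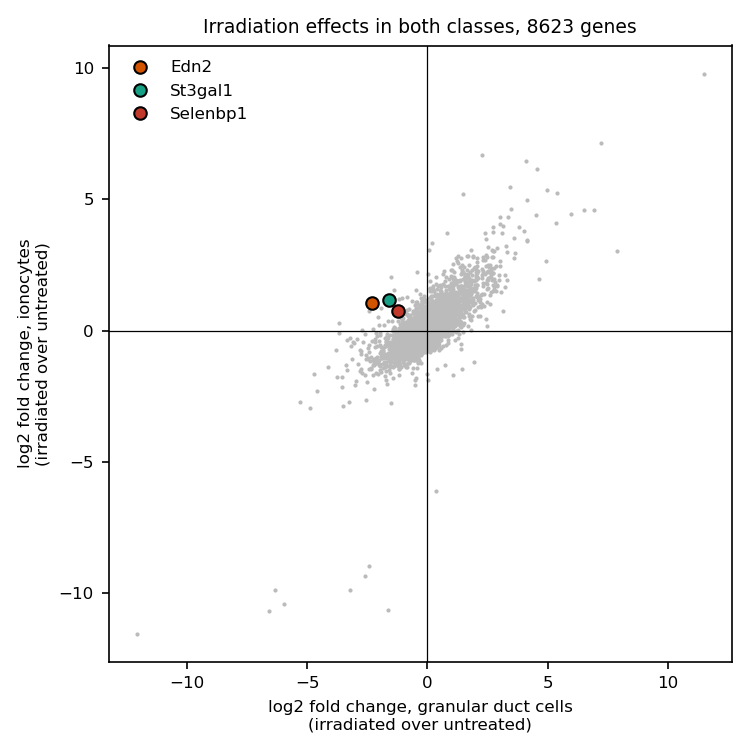
Log2 fold change of irradiated over untreated in granular duct cells (x axis) and in ionocytes (y axis) for the 8623 genes fitted in both classes (grey), with Edn2, St3gal1 and Selenbp1 coloured. These 3 lie at the upper left, lower in granular duct cells and higher in ionocytes, where 13.2% of the genes lie. Dcn and Arhgap44 were not fitted in granular duct cells and are not drawn.

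The share of cells with at least 1 UMI was compared after each cell was thinned to 3000 UMIs, because irradiated cells were deeper. Cells under that depth were left out, 3 irradiated and 2 untreated granular duct cells, and 4 irradiated and 2 untreated ionocytes. Selenbp1 was detected in 4.19% ± 2.63 of irradiated and 12.6% ± 5.25 of untreated granular duct cells, and in 18.2% ± 0.994 of irradiated and 10.6% ± 2.10 of untreated ionocytes (SD, n = 3 mice each). Neither class overlapped between groups at this depth. Thinned to 1500 UMIs, the granular duct ranges overlapped, at 1.15% to 2.97% in irradiated and 2.963% to 6.90% in untreated mice. The share of all genes without overlap was not counted in this measure. St3gal1 was detected in 0.717% ± 0.237 of irradiated and 1.11% ± 0.326 of untreated granular duct cells, which overlapped, and in 13.2% ± 2.69 of irradiated and 5.11% ± 2.42 of untreated ionocytes, which did not. At 4 positive cells of 620 irradiated and 4 of 352 untreated granular duct cells, a difference for St3gal1 was not detectable in this measure.

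Dcn was detected in 18.6% ± 5.15 of irradiated and 9.68% ± 5.35 of untreated ionocytes, with overlap, since irradiated mouse 1 had 13.9% and untreated mouse 1 had 15.8%. In granular duct cells Dcn was found in 2 of 620 irradiated cells and in 0 of 352 untreated cells, which allows a share of cells with a UMI at this thinned depth of up to 0.852%. Without thinning, 9 of 623 irradiated and 13 of 354 untreated granular duct cells held a Dcn UMI. Edn2 was detected in 1.92% ± 2.12 of irradiated and 1.41% ± 0.694 of untreated ionocytes, and Arhgap44 in 2.95% ± 0.739 of irradiated and 2.38% ± 0.235 of untreated ionocytes, both with overlap. Without thinning, Selenbp1 was detected in 37.4% of irradiated and 53.9% of untreated granular duct cells and in 52.9% of irradiated and 35.9% of untreated ionocytes, and St3gal1 in 42.9% of irradiated and 17.7% of untreated ionocytes. Droplets also hold free RNA. In untreated acinar cells, thinned alike, with median depths of 25346 to 28902.5 UMIs per mouse, Selenbp1 was detected in 4.86% ± 1.84 of cells and Dcn in 1.55% ± 1.5. These cells come from the untreated library, so they set no level of free RNA for the irradiated one. The part of free RNA in these shares was not tested.

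**Figure D4:**
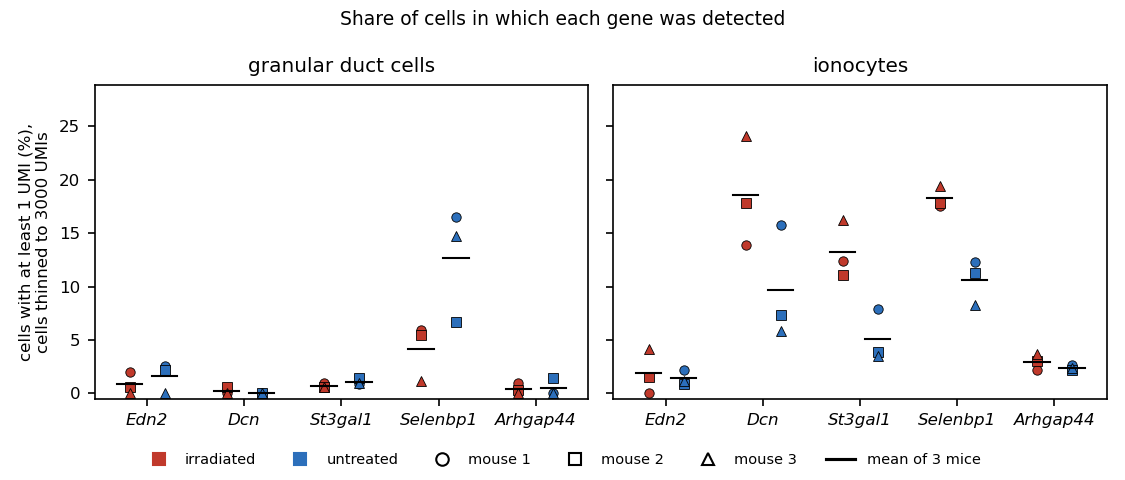
Share of cells with at least 1 UMI of each gene after thinning to 3000 UMIs per cell (y axis, percent), in granular duct cells (left panel) and ionocytes (right panel), irradiated mice in red left of untreated mice in blue, with bars at the mean of 3 mice. In ionocytes the irradiated means are 18.2% for Selenbp1 and 13.2% for St3gal1, above the untreated means of 10.6% and 5.11%.

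Barcodes without a hashtag call were not part of these values. They come from the same libraries and cannot be assigned to mice, so they have no test, and their intervals (95%, exact Poisson) cover counting error only. Selenbp1 stood at 11.6 CPM (5.30 to 22.0) in 38 irradiated and 45.3 CPM (34.0 to 59.1) in 85 untreated granular duct barcodes. In ionocytes it stood at 58.4 CPM (45.8 to 73.3) in 89 irradiated and 35.1 CPM (26.6 to 45.5) in 153 untreated barcodes. The Selenbp1 levels thus had the same order as in the hashtagged mice in both classes.

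St3gal1 stood at 56.0 CPM (43.7 to 70.7) in irradiated and 23.4 CPM (16.6 to 32.1) in untreated ionocyte barcodes. In granular duct barcodes it had 0 counts in irradiated (up to 3.86 CPM for 3 counts) and 3 counts in untreated, too few to order. Edn2 stood at 2.58 CPM (0.312 to 9.30) in irradiated and 42.8 CPM (31.9 to 56.2) in untreated granular duct barcodes, and at 124.6 CPM (106.0 to 145.7) in irradiated and 17.9 CPM (12 to 25.7) in untreated ionocyte barcodes. Dcn did not keep its order, at 91.5 CPM (75.6 to 109.8) in irradiated and 96.8 CPM (82.2 to 113.1) in untreated ionocyte barcodes. Arhgap44 stood at 21.3 CPM (14.0 to 31.0) in irradiated and 10.5 CPM (6.1 to 16.8) in untreated ionocyte barcodes.

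Across the other cell classes the 5 genes had unlike homes. Classes are ordered here where each of the 3 mice held at least 10 cells, which leaves out fibroblasts and endothelial cells in the untreated library, at 13 and 19 cells in all. In untreated glands Edn2 had its highest mean in intercalated duct cells, at 60.5 ± 45.3 CPM (SD, n = 3). Their lowest mouse, at 27.3 CPM, was below the highest mouse of granular duct cells, at 34.8 CPM, and granular duct cells overlapped ionocytes. Arhgap44 was also highest in intercalated duct cells, at 38.1 ± 7.91 CPM, without overlap with the next class. Selenbp1 was at 56.3 ± 8.46 CPM in intercalated duct cells and 56.2 ± 1.07 CPM in the cells that no marker list named, which overlapped, and was lowest in acinar cells at 6.36 ± 1.66 CPM.

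Of the ordered classes St3gal1 was highest in untreated acinar cells, at 39.3 ± 1.28 CPM, above intercalated duct cells at 18.6 ± 3.89 CPM and ionocytes at 17.8 ± 4.23 CPM, which overlapped each other. Irradiated ionocytes, at 43.0 ± 9.15 CPM, overlapped untreated acinar cells in range. Of the ordered classes Dcn was highest in untreated basal duct cells (the 13 fibroblasts left out stood at 20303 CPM), and untreated ionocytes came next at 42.1 ± 18.2 CPM, overlapping the cells that no list named. In the irradiated library only granular duct cells, ionocytes and the cells no list named held 20 cells in every mouse. Ionocytes were the highest of these 3 for Dcn, St3gal1 and Selenbp1 without overlap, and for Arhgap44 with overlap. The share of all genes with such an order of classes was not counted in either library, so nothing is read from these orders.

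**Figure D5:**
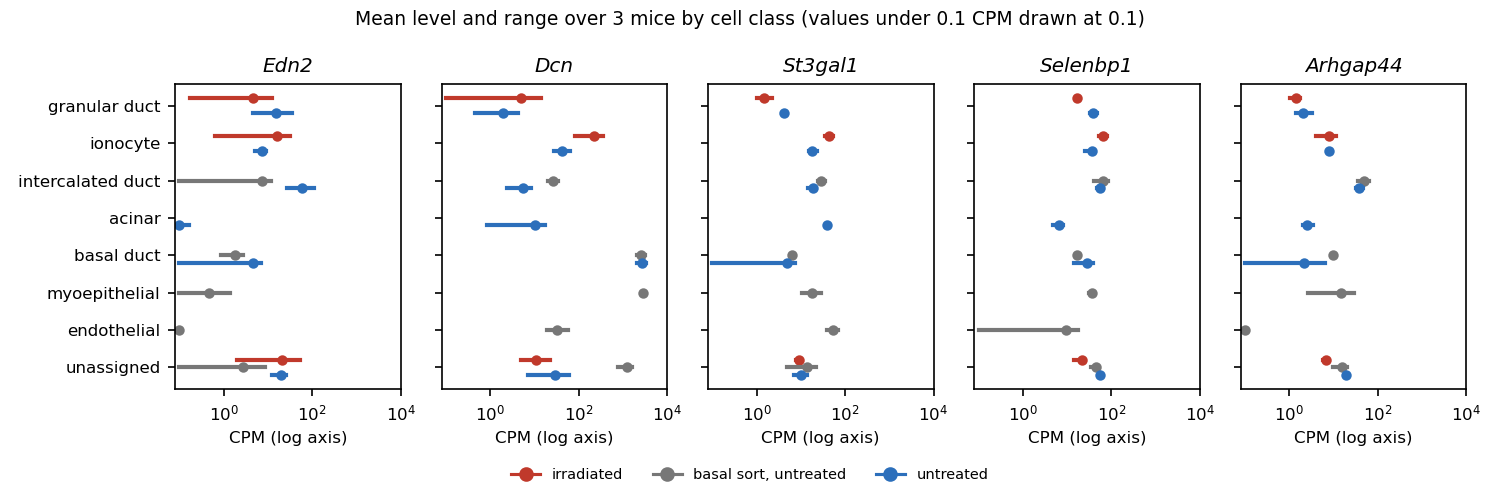
Mean CPM (points) and range over mice (lines) of the 5 genes by cell class (rows), on a log axis with values under 0.1 CPM drawn at 0.1, for irradiated (red), basal sort (grey) and untreated (blue) libraries. Dcn in basal duct cells stands near 2582 CPM in the basal-sorted library, against 2762 CPM in untreated glands, and Edn2 has its highest mean in untreated intercalated duct cells.

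The basal sort was a comparison that the choice of the genes did not use. Over all kept cells, Dcn was higher in the basal sort than in the untreated whole epithelium, at 2495 ± 544 CPM against 117 ± 66.6 CPM (SD, n = 3 each; log2 fold change 3.85 ± 0.42 SE, adjusted p = 2.5e-05, edgeR). Edn2 was lower in the basal sort, at 1.91 ± 1.10 against 11.0 ± 4.25 CPM (log2 fold change -3.17 ± 0.38, edgeR adjusted p = 5.4e-05). St3gal1 was lower at 7.59 ± 0.179 against 21.9 ± 0.676 CPM (log2 fold change -2.07 ± 0.10, edgeR adjusted p = 1.5e-07). Selenbp1 was lower at 18.6 ± 0.502 against 30.7 ± 2.24 CPM (log2 fold change -1.27 ± 0.09, edgeR adjusted p = 1.4e-06).

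Arhgap44, at 10.5 ± 1.53 CPM in basal-sorted mice against 8.32 ± 1.63 CPM in untreated mice, did not pass (log2 fold change -0.21 ± 0.16, edgeR adjusted p = 0.25), and its fitted sign was opposite to that of its mean CPM. In this comparison 73.8% of 12950 genes passed (37.0% higher and 36.8% lower) between sets of cells that the sort itself made different. It shares its untreated mice with the irradiation comparison. Over all kept cells of each mouse, which mix the classes, irradiated and untreated mice overlapped for Edn2, Dcn and Selenbp1. St3gal1 averaged 19.7 ± 2.83 CPM in irradiated and 21.9 ± 0.676 CPM in untreated mice. Its highest irradiated mouse, at 21.43 CPM, barely lay below its lowest untreated mouse, at 21.46 CPM. Arhgap44 averaged 5.19 ± 1.66 CPM in irradiated and 8.32 ± 1.63 CPM in untreated mice, with 6.18 CPM as the highest irradiated and 6.58 CPM as the lowest untreated mouse. The share of all genes that separate in this way was not counted, so nothing is read from it.

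Genes of the same pathways were counted from lists that leave the 5 genes out. Of 9 other endothelin genes (peptides, receptors, proteases), 3 were fitted in granular duct cells, with 1 higher and 1 lower, and 4 in ionocytes, with 2 higher and 0 lower. Edn1, the endothelin 1 precursor, was higher in both classes. It averaged 104 ± 15.0 CPM in irradiated and 45.7 ± 14.8 CPM in untreated granular duct cells (log2 fold change 1.14 ± 0.17 SE, edgeR adjusted p = 4.1e-04). In ionocytes it averaged 86.9 ± 8.53 CPM in irradiated and 39.0 ± 14.3 CPM in untreated mice (1.08 ± 0.19, edgeR adjusted p = 0.00307). The difference of the Edn1 effects between the classes did not pass (-0.08 on the log2 scale, edgeR adjusted p = 0.93). Mme, the peptide-cleaving protease neprilysin, was lower in granular duct cells (-0.59 ± 0.19, edgeR adjusted p = 0.0294), and Ece1, the endothelin-converting enzyme, was higher in ionocytes (0.43 ± 0.14, edgeR adjusted p = 0.0499).

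Of 14 other small leucine-rich proteoglycans 1, Chad (chondroadherin), was fitted in each class and passed in neither. Its log2 fold change was -0.48 ± 0.39 in granular duct cells (edgeR adjusted p = 0.377) and -0.66 ± 0.34 in ionocytes (edgeR adjusted p = 0.184). Lum, Aspn, Epyc, Kera and Optc had 0 counts in both classes and groups, and the others averaged at most 0.294 CPM in ionocytes.

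Of 24 other sialyltransferase and core 1 O-glycan genes, 6 were fitted in granular duct cells, with 0 higher and 1 lower, and 7 in ionocytes, with 1 higher and 1 lower. St3gal4, a sialyltransferase with other acceptors, was the one lower in ionocytes, at 0.766 ± 0.441 CPM in irradiated and 16.7 ± 2.46 CPM in untreated mice (SD, n = 3 each; log2 fold change -4.30 ± 0.32 SE, edgeR adjusted p = 2.8e-05). St6galnac2, which adds sialic acid to the core GalNAc, was higher in ionocytes, at 7.84 ± 0.858 CPM in irradiated and 3.75 ± 1.55 CPM in untreated mice (0.98 ± 0.30, edgeR adjusted p = 0.0379). C1galt1, the enzyme that makes the core 1 structure St3gal1 acts on, was lower in granular duct cells, at 35.5 ± 0.546 CPM in irradiated and 43.2 ± 2.00 CPM in untreated mice (-0.33 ± 0.12, edgeR adjusted p = 0.0490).

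Of 10 sulfur oxidation and selenium-binding genes besides Selenbp1, 6 were fitted in granular duct cells, with 3 higher and 1 lower, and 7 in ionocytes, with 2 higher and 2 lower. The median log2 fold change of the list was 0.46 in granular duct cells and 0.06 in ionocytes, beside -0.03 and -0.01 for all genes tested in each class. Sqor, the mitochondrial sulfide oxidase, was higher in both, by 1.02 ± 0.17 in granular duct cells (edgeR adjusted p = 8.6e-04) and 0.66 ± 0.14 in ionocytes (edgeR adjusted p = 0.00751) on the log2 scale. Tst, a thiosulfate sulfurtransferase, was higher in both, by 1.18 ± 0.31 (edgeR adjusted p = 0.0124) and 0.93 ± 0.29 (edgeR adjusted p = 0.045). Ethe1, a mitochondrial persulfide dioxygenase, was higher in granular duct cells, by 0.78 ± 0.16 (edgeR adjusted p = 0.00254).

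Cdo1, the cysteine dioxygenase, was lower in both classes. It averaged 44.5 ± 5.64 CPM in irradiated and 129 ± 16.9 CPM in untreated granular duct cells (-1.56 ± 0.13, edgeR adjusted p = 5.5e-06), and 20.8 ± 7.15 CPM in irradiated and 51.6 ± 14.1 CPM in untreated ionocytes (-1.39 ± 0.25, edgeR adjusted p = 0.00369). Suox, the sulfite oxidase, was lower in ionocytes (-1.61 ± 0.37, edgeR adjusted p = 0.0109). None of the genes of this list named here passed the test of a difference between the classes, with edgeR adjusted p from 0.26 to 0.92.

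Of 18 genes of BAR-domain RhoGAPs and of Rac and Cdc42 signalling besides Arhgap44, 13 were fitted in granular duct cells, with 4 higher and 2 lower, and 14 in ionocytes, with 6 higher and 1 lower. The median log2 fold change of the list was -0.05 in granular duct cells and 0.21 in ionocytes. Arhgap17, the closest named relative of Arhgap44, was lower in granular duct cells, at 13.9 ± 1.66 CPM in irradiated and 29.6 ± 1.49 CPM in untreated mice (-1.12 ± 0.15, edgeR adjusted p = 1.7e-04). In ionocytes Arhgap17 stood at 20.9 ± 4.09 CPM in irradiated and 25.2 ± 4.0 CPM in untreated mice and did not pass (-0.31 ± 0.17, edgeR adjusted p = 0.215). Arhgap26 was lower in granular duct cells (-0.99 ± 0.28, edgeR adjusted p = 0.0167).

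Pak1, a kinase that Rac and Cdc42 activate, and Cdc42 itself were higher in granular duct cells, by 1.37 ± 0.43 (edgeR adjusted p = 0.0272) and 0.68 ± 0.10 (edgeR adjusted p = 2.8e-04) on the log2 scale. In ionocytes Pak3 was higher by 2.24 ± 0.45 (edgeR adjusted p = 0.00593), Arhgap42 by 1.26 ± 0.21 (edgeR adjusted p = 0.00252) and Srgap1 by 1.17 ± 0.26 (edgeR adjusted p = 0.0096). Rac3 was lower there, by -0.84 ± 0.17 (edgeR adjusted p = 0.00606).

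The genes whose levels over the 12 sums of mouse and class were most like each member were found by Pearson's r of log2(CPM + 1), among 6062 genes with a mean of at least 10 CPM. The 12 sums come from 6 mice and share libraries, so r is a description. For Selenbp1 they were Mrtfb (r = 0.959), Oaz2 (0.937) and Nisch (0.926). For St3gal1 they were Cald1 and Acsl6 (both 0.984) and Epb41l2 (0.977). Cald1, the actin-binding caldesmon, had log2 fold changes of -1.17 in granular duct cells and 1.21 in ionocytes. It was picked by its match to St3gal1 over the same sums, so this likeness is no separate finding. Dcn was most like Ate1 (0.972) and Nipa2 (0.961), and Arhgap44 most like Rpap3 (0.981), Ptprj (0.979) and Ncoa7 (0.977). Edn2 was less closely matched, by Gmpr2 (0.842), Gmps (0.819) and Foxa1 (0.766).

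Irradiated cells of the ionocyte rule varied among themselves. In the 397 irradiated ionocytes with 5 or more UMIs of Cdkn1a, a p53 target that arrests the cell cycle, Selenbp1 stood at 34.6, 48.2 and 53.6 CPM in mice 1, 2 and 3, and in the 569 with fewer at 104, 79.5 and 92.9 CPM. St3gal1 stood at 25.6, 22.9 and 45.1 CPM in the Cdkn1a-rich cells and at 63.1, 53.7 and 58.1 CPM in the others. Dcn stood at 54.4, 134.5 and 158.6 CPM in the Cdkn1a-rich cells and at 163.0, 291.3 and 484.1 CPM in the others. All 3 genes were lower in the Cdkn1a-rich cells of every irradiated mouse, and so was Arhgap44. Edn2 was lower in mice 2 and 3 but not in mouse 1, at 0.899 CPM in the Cdkn1a-rich cells and 0 CPM in the others. The share of all genes with this order was not counted. The cut was set on UMIs, which rise with depth, and was not tested. It also ran over the whole ionocyte rule. Irradiated cells with 0 or 1 UMIs of Ascl3 and Foxi1 had lower means of Selenbp1, St3gal1, Dcn and Arhgap44 than Ascl3/Foxi1-positive ones. Selenbp1 averaged 31.9 against 94.7 CPM and St3gal1 12.7 against 65.7 CPM. How many Cdkn1a-rich cells had so few UMIs of these factors was not counted.

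Cells lay close to both class limits, on either side. Just inside the granular limit (kallikreins and Egf at 3% to 4%) Selenbp1 stood at 22.7 CPM in 179 irradiated and 48.8 CPM in 66 untreated cells, and just outside it (2% to 3%) at 25.5 CPM in 203 irradiated and 59.9 CPM in 109 untreated cells. Just inside the ionocyte limit (5 or 6 UMIs) St3gal1 stood at 24.0 CPM in 171 irradiated and 17.8 CPM in 62 untreated cells, and just outside it (3 or 4 UMIs) at 10.2 CPM in 166 irradiated and 19.2 CPM in 140 untreated cells. At 5 or 6 UMIs Selenbp1 stood at 32.1 CPM in irradiated and 56.0 CPM in untreated cells, an order opposite to that of the ionocyte class as a whole.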

How the data were processed

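Members and gene lists were chosen with earlier results of these data known. The authors deposited unnormalized UMI counts by barcode for genes and for hashtag antibodies. Cell Ranger 6.1.2 and mm10 are named in the submitters' processing notes. The files held 3319 irradiated, 5044 basal-sort and 8277 untreated barcodes with 58485558, 59207148 and 137835128 gene UMIs. Barcodes with under 500 genes or over 20% mitochondrial UMIs were dropped (2629, 4418 and 4093 left). Mice were assigned by HTODemux (Seurat 5.3.0 in R 4.3.3, positive quantile 0.99, 5 starting clusters). Hashtag doublets (181, 231 and 150) and barcodes with no call (295, 998 and 1778) were left out. A hashtag cannot show doublets within a mouse, and no further doublet caller was used.

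Classes were rebuilt here by UMI rules, not taken from the authors. Cells outside both rules went to the marker list with the most UMIs, at least 5. Summed counts were tested with edgeR 4.0.16 (quasi-likelihood F test after filterByExpr and TMM, with Benjamini-Hochberg adjustment over every gene fitted and a threshold of 0.05), where every mouse held at least 20 cells of a class. The difference between classes was an interaction term, with each mouse as a block. The method was tested on simulated sums with 4-fold changes, of which 98.48% were recovered for granular duct cells and 98.98% for ionocytes. False calls numbered 10 and 4. Smaller changes and changes in genes at the lowest levels were not simulated. Share intervals are Clopper-Pearson and count intervals Poisson, both at 95% and for counting error only. A count of 0 is given the level of 3 counts. Hashtag numbers could pair mice across libraries, but deviations from the group means correlated at -0.09 to 0.05 for same-numbered mice, so no pairing was used. Named beside the members are up to 4 genes per list and class that passed, the largest first, and the 3 most alike each member (no Gm, Rik, mitochondrial or ribosomal names), of which 1 is not reported here. Chad and genes with 0 counts are named for a list with no such gene, and Cald1's changes were looked up after its r was seen. The alternatives were other normalization (DESeq2 1.42.0), filters, class limits, hashtag rules, depths and single mice left out.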

Additional observations from a re-analysis of the deposited data

Results flagged for a closer look

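In 3 genes of the Rac and Cdc42 list the irradiation effect differed between the classes by the interaction test, given as the effect in ionocytes minus that in granular duct cells. The Arhgap17 difference was 0.77 on the log2 scale (edgeR adjusted p = 0.045), and Arhgap17 was lower in granular duct cells of irradiated mice and did not pass in ionocytes (-0.31 ± 0.17, edgeR adjusted p = 0.215). Srgap2, a BAR-domain RhoGAP of cell protrusions, differed by 1.89 (edgeR adjusted p = 0.041). It stood at 13.1 ± 6.13 CPM in irradiated and 11.2 ± 2.15 CPM in untreated ionocytes (SD, n = 3 each). Srgap2 did not pass in ionocytes (0.13 ± 0.28 SE, edgeR adjusted p = 0.776). In granular duct cells it stood at 0.631 ± 0.260 CPM in irradiated and 2.38 ± 0.911 CPM in untreated mice (SD, n = 3 each). Its counts there were too low to be fitted within that class, so the difference rests on few granular duct counts. The Cdc42 difference was -0.48 (edgeR adjusted p = 0.024), and Cdc42 was higher in irradiated mice in both classes. In that fit 4.32% of all genes passed.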

How the results depend on the processing

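The counts of genes passing the test were recomputed under each alternative. In granular duct cells 2970 genes passed, 1976 with kallikreins and Egf at 6% or more, and 2277 to 2803 with single mice left out. In ionocytes 2425 passed, 1474 with a mitochondrial limit of 10%, and 1473 to 2447 with single mice left out, the lowest being 1473 without irradiated mouse 2 and 1603 without untreated mouse 2. The difference between classes passed for 451 genes. It passed for 885 with no filter on low counts, 272 with a mitochondrial limit of 10%, 276 without granular duct cells holding 5 ionocyte UMIs, 999 in ionocytes with kallikreins below 1%, and 1347 in Ascl3/Foxi1-positive ionocytes. Single mice left out gave 178 to 481 (188 without irradiated mouse 2, and 178, 255 and 198 without untreated mice 1, 2 and 3). Genes called in opposite directions numbered 16, and 5 with DESeq2, 44 with no filter, 9 with a mitochondrial limit of 10%, 44 with kallikreins below 1% and 69 in Ascl3/Foxi1-positive ionocytes. Single mice left out gave 8 to 27 (27 without irradiated mouse 1, 8 without irradiated mouse 2, 10 without untreated mouse 1 and 10 without untreated mouse 3). The alternatives also differ in the number of samples or genes tested, and the cause of these changes was not tested. The basal sort gave 9552 genes, and 9020 to 9731 with single mice left out. The hashtag number as a replicate block, which does not pair the mice, gave 2921 genes in granular duct cells, 2174 in ionocytes, 14 in opposite directions and 9620 in the basal sort, and changed no call of a member except Edn2 in granular duct cells, which then passed (-1.89 ± 0.36 SE). Edn2 passed there too with no filter, at a mitochondrial limit of 10% and without irradiated mouse 1 or untreated mouse 3. Dcn passed in granular duct cells with no filter, as higher in irradiated mice (1.75 ± 0.37 SE), with its highest cell included. Of the members, Selenbp1 and St3gal1 kept their direction in both classes under all alternatives that could be fitted, though St3gal1 lost its call under 3 of them and Selenbp1 under 1. The members were chosen on this contrast, so their calls in the 2 classes describe the settings and are no support for the pattern. St3gal1 in granular duct cells could not be fitted at the other mitochondrial limits, at 6% kallikreins or without cells holding 5 ionocyte UMIs. The Dcn difference in granular duct cells turned to -0.12 CPM with the 6% limit, -0.17 CPM without cells holding 5 ionocyte UMIs, -1.50 CPM without irradiated mouse 2 and -1.39 CPM without its highest cell (range -1.50 to 5.44 CPM with single mice left out). The Arhgap44 change in ionocytes turned to 0.36 at 10 ionocyte UMIs, 0.25 with kallikreins below 1%, 0.54 in Ascl3/Foxi1-positive cells, 0.047 with totals free of kallikreins, 0.061 by the hashtag share rule and 0.14 over all barcodes, and ranged from -0.24 to 0.15 with single mice left out (log2). Arhgap44 passed in the basal sort with a mitochondrial limit of 10% (-0.64, edgeR adjusted p = 0.0037; -0.06 at the other end of its alternatives). Within the 2 cell classes, fits by the hashtag share rule were not run, with under 20 cells in a mouse, so ratios of mean CPM stand in. The intercalated duct comparison was not run either, at 4, 28 and 7 irradiated cells, nor was the interaction with DESeq2 or the replicate block. Depth limits St3gal1, Dcn and Arhgap44 in granular duct cells, which had 27, 151 and 25 counts in irradiated and 33, 15 and 17 counts in untreated cells.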

Other observations

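In irradiated granular duct cells, the 47 cells with 5 or more UMIs of Reg3g, an antimicrobial lectin, had Selenbp1 at 37.5, 24.0 and 6.19 CPM in mice 1, 2 and 3, and the 576 cells with fewer at 14.9, 18.6 and 16.8 CPM, with no common order over the mice.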
